A study of Arabidopsis thaliana with 7 samples.

Results

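UGT76B1 (AT3G11340), UGT74F1 (AT2G43840) and BSMT1 (AT3G11480) of Arabidopsis thaliana encode enzymes that attach glucose or a methyl group to salicylic acid (SA). They were taken by gene symbol or locus, with earlier results of these data known. Each was read by 1 probe set, and together they are 3 of the 13286 loci that a probe set of the array names without ambiguity. Their levels were followed in mature leaves of Col-0 plants aged 3.5 weeks on 7 Affymetrix ATH1 arrays. On 4 arrays the leaves had been sprayed with 0.5 mM SA in 0.02% Silwet, a wetting agent, and were taken 3, 6, 12 and 24 h later. On 2 arrays they had been sprayed with 0.02% Silwet alone and were taken after 6 h and 12 h. The last array held leaves taken untreated, just before spraying, at 0 h. All plants shared the wild-type background and a 12 h photoperiod, and each sample pooled leaves of several plants. There was 1 array per condition and time, so no condition has a replicate. The "control arm" below joins the untreated array and both Silwet arrays. The SD of an arm is taken over its arrays, which stand for different times and, among controls, for sprayed and unsprayed leaves. The array measures pooled tissue, in which fewer cells of a type and less RNA per cell cannot be told apart.

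SA is a phenolic hormone that plants make in response to biotrophic pathogens and that switches on defence genes through the NPR receptors and TGA transcription factors. Leaves keep its free level in check by modifying it. Glucosyltransferases of the UGT family move glucose from UDP-glucose to the hydroxyl or carboxyl group of SA, and the glucosides are stored in the vacuole. UGT74F1 and its tandem relative UGT74F2 are glucosyltransferases of this kind. UGT76B1 accepts SA, isoleucic acid and N-hydroxypipecolic acid, a second signal of systemic immunity, and lowers the active pool of each. BSMT1 belongs to the SABATH methyltransferases and uses S-adenosylmethionine to turn SA into methyl salicylate, a volatile and mobile form, and it also methylates benzoic acid.

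Values are log2 expression values from RMA, so a difference of 1 is a 2-fold change. Medians of the 7 arrays lay within 0.04 of one another over the 13513 probe sets that name 1 gene. Here and below, a listed gene counts as measured where the annotation used gave a probe set that gene alone. Genes not counted may be read by the 8794 probe sets left unnamed or the 503 that name several genes. The tissue label was checked on 2 measured markers of leaf photosynthesis of 13 listed. RCA, which encodes Rubisco activase, read between 13.70 and 14.11 in the SA arrays and between 14.04 and 14.22 in the control arrays, and LHCB4.2, of a light-harvesting protein, between 10.44 and 13.30 with SA and between 11.99 and 13.66 in the controls. The summed level of these 2 markers was 24.41 to 27.41 in the SA arrays and 26.06 to 27.88 in the control arrays. Of 5 listed root markers 2 were measured, with sums of 10.16 to 10.59 in the SA arrays and 10.52 to 11.52 in the control arrays. PYK10 among them read at most 4.75 with SA and 5.46 in the controls. The other, EXPA7, read between 5.83 and 6.07 with SA and between 6.07 and 6.39 in the controls, where the median of all values was 6.59. The 4 measured guard-cell and epidermis markers of 7 summed to 24.57 to 27.73 with SA and 26.97 to 28.56 in the controls. All of these 8 markers had a lower mean in the SA arm. None passed the test between the arms in limma, where 1.33% of all probe sets did. At an unadjusted p under 0.05 there were 2, both lower with SA, where 10.9% of all probe sets were lower and 9.27% higher. None of the 3 listed phloem markers or the 6 flower and seed markers was analysed here. The part of these cell types in the results below was not tested.

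Of the 3 genes, UGT76B1 differed most between SA and control leaves. It read 13.10, 13.34, 12.57 and 11.33 in the SA arrays at 3, 6, 12 and 24 h, against 5.68 in untreated leaves and 4.80 and 5.18 in Silwet leaves at 6 h and 12 h. The arms were far apart: the lowest SA array stood 5.64 above the highest control array. Over arrays the SA arm averaged 12.58 ± 0.90 (SD, n = 4) and the control arm 5.22 ± 0.44 (SD, n = 3). UGT76B1 rose by 7.36 (SE 0.50, 95% interval 6.20 to 8.52, 165-fold; limma adjusted p = 0.0021), where 1.03% of the 13513 probe sets were called higher and 0.303% lower. An exact two-sided permutation test over the 35 ways of dividing the arrays, with the smaller tail doubled, gave p = 0.0571. That is the smallest p this test can give here. The call held whichever array was left out, with differences of 7.11 to 7.78 and limma adjusted p-values of 0.00107 to 0.02. The number of all probe sets called, 180, was less steady. Dropping the untreated array left 92 calls, dropping Silwet 6 h left 27, and dropping Silwet 12 h left 17. Dropping an SA array left 58 (3 h), 31 (6 h), 44 (12 h) or 681 (24 h). The control values lie in the dim range of the array, where RMA compresses differences, so the fold carries more uncertainty than its SE states.

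Within the SA arm UGT76B1 was already near its top at the first time sampled. It stood 0.25 higher at 6 h than at 3 h, then 0.78 lower at 12 h than at 6 h and 1.24 lower again at 24 h than at 12 h. The 24 h level was thus 2.02 below the 6 h level, or 0.247 of it on the linear scale, a difference past 2-fold, as 5.68% of probe sets had in that direction between these arrays and 4.3% between 24 h and 12 h. Even so, the 24 h array lay 5.64 above untreated leaves taken at the same clock time. The Silwet arrays at 6 h and 12 h were 0.88 and 0.50 below the untreated array, and there was no Silwet array at 3 h or 24 h. An effect of the spray alone was not tested. From the highest level to the lowest the order was SA 6 h, SA 3 h, SA 12 h, SA 24 h, untreated, Silwet 12 h and Silwet 6 h. Measured against the SD of the control arm, 0.44, the neighbours SA 6 h and SA 3 h and the neighbours Silwet 12 h and Silwet 6 h differed by less than that spread. The steps from SA 3 h to SA 12 h (0.53) and from untreated to Silwet 12 h (0.50) were slightly larger than it.

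**Figure D1:**
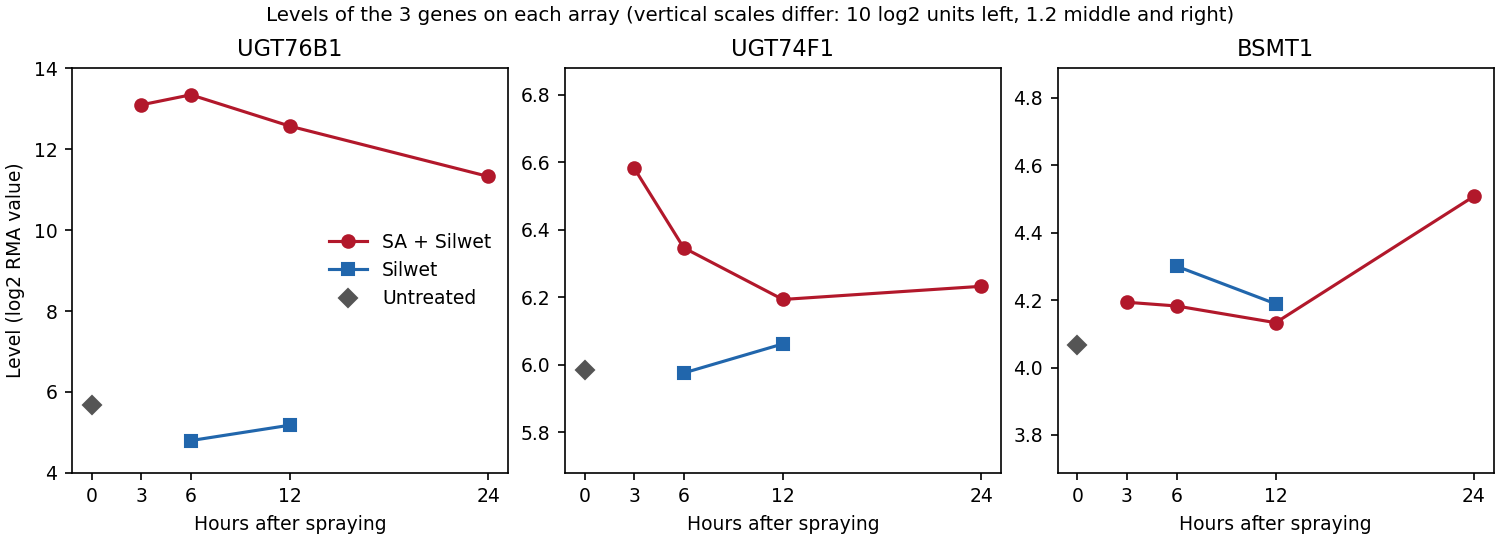
Level of UGT76B1, UGT74F1 and BSMT1 (vertical axis, log2 RMA value) against hours after spraying, 1 point per array, for SA with Silwet (circles), Silwet alone (squares) and untreated leaves (diamond). The vertical scales differ: UGT76B1 spans 11.33 to 13.34 with SA and 4.80 to 5.68 in the controls, while all 7 arrays lie within 0.61 for UGT74F1 and within 0.44 for BSMT1.

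UGT74F1, the other glucosyltransferase of the 3, differed little between the arms. Its level was 6.58, 6.35, 6.19 and 6.23 with SA at 3, 6, 12 and 24 h, against 5.98 in untreated leaves and 5.98 and 6.06 in Silwet leaves at 6 h and 12 h. Every SA array lay above every control array, as it did for 8.67% of all probe sets, but the gap between the nearest of them was 0.13. The SA arm averaged 6.34 ± 0.18 (SD, n = 4) and the control arm 6.01 ± 0.05 (SD, n = 3). The difference of 0.33 (SE 0.12, 95% interval 0.05 to 0.62, 1.26-fold) missed the threshold over all probe sets (limma adjusted p = 0.193, unadjusted 0.0284), and 35.6% of probe sets differed by more in either direction. The exact two-sided permutation p was 0.0571, again the smallest that test can give. The largest value was at 3 h, 0.60 above untreated leaves, and the SA 12 h array stood 0.13 above Silwet at that time. In order of level the arrays ran SA 3 h, SA 6 h, SA 24 h, SA 12 h, Silwet 12 h, untreated and Silwet 6 h. The neighbours SA 24 h and SA 12 h (0.04 apart) and untreated and Silwet 6 h (0.01 apart) were closer than the control SD. UGT74F2 has no probe set named here for it alone and is not analysed here.

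BSMT1 showed no difference that the test could resolve. It read 4.19, 4.18, 4.13 and 4.51 with SA at 3, 6, 12 and 24 h, against 4.07 in untreated leaves and 4.30 and 4.19 in Silwet leaves at 6 h and 12 h. The arms overlapped, since SA at 3, 6 and 12 h lay between the untreated array and Silwet 6 h. Only 12.4% of probe sets had a lower mean over the arrays, so the transcript was read near the dim end of the scale, where a change could be missed. Means were 4.25 ± 0.17 with SA (SD, n = 4) and 4.19 ± 0.12 in the control arm (SD, n = 3), a difference of 0.07 (SE 0.10, 95% interval -0.17 to 0.31; limma adjusted p = 0.754; exact two-sided permutation p = 0.686). Its sign turned to -0.02 without the SA 24 h array and to -0.09 over the 6 h and 12 h arrays alone. The highest array, SA 24 h, stood 0.44 above untreated leaves, and 24.7% of probe sets differed by more in that comparison. In order of level the arrays ran SA 24 h, Silwet 6 h, SA 3 h, Silwet 12 h, SA 6 h, SA 12 h and untreated, and only the step from SA 24 h to Silwet 6 h, 0.21, exceeded the control SD of 0.12.

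Time by time, UGT76B1 stood apart from the other two. At 6 h, SA leaves exceeded Silwet leaves by 8.55 for UGT76B1 (374-fold) and 0.37 for UGT74F1, and BSMT1 differed by -0.12. At 12 h the same differences were 7.39 (168-fold), 0.13 and -0.06. At 3 h, SA leaves exceeded untreated leaves by 7.41 (UGT76B1, 170-fold), 0.60 (UGT74F1) and 0.13 (BSMT1), and at 24 h by 5.64, 0.25 and 0.44. UGT76B1 was therefore the 1 member of 3 past 2-fold higher at each time, where 8.65% of probe sets were so at 6 h, 5.98% at 12 h, 7.2% at 3 h and 3.51% at 24 h. Its difference ranked first among 13513 probe sets at 3, 6 and 12 h and second at 24 h. The members were chosen with earlier results of these data known, so these ranks are a description. None of the members was past 2-fold in Silwet against untreated leaves, where the share of all probe sets past 2-fold at 6 h was 3.75% upward and 4.7% downward, and at 12 h 4.71% upward and 5.04% downward. The 3 h and 24 h comparisons share the untreated array and also hold the spray, since those leaves were sprayed and the untreated ones were not. With 1 array on each side these differences carry no test. The GAPDH control probe sets, which compare the 3′ and 5′ ends of the transcript, showed a 3′ excess of 0.62 in SA and 1.78 in Silwet at 6 h, and of 1.49 in SA and 1.41 in Silwet at 12 h. For actin the excess was 2.48 in SA and 2.39 in Silwet at 6 h, and 2.44 in SA and 1.84 in Silwet at 12 h. For SA 3 h, SA 24 h and untreated leaves the excess was 0.57, 1.19 and 0.85 by GAPDH and 1.72, 2.30 and 1.83 by actin. The pair furthest apart was thus the 6 h one by GAPDH and the 12 h one by actin. The part of RNA quality in these differences was not tested.

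**Figure D2:**
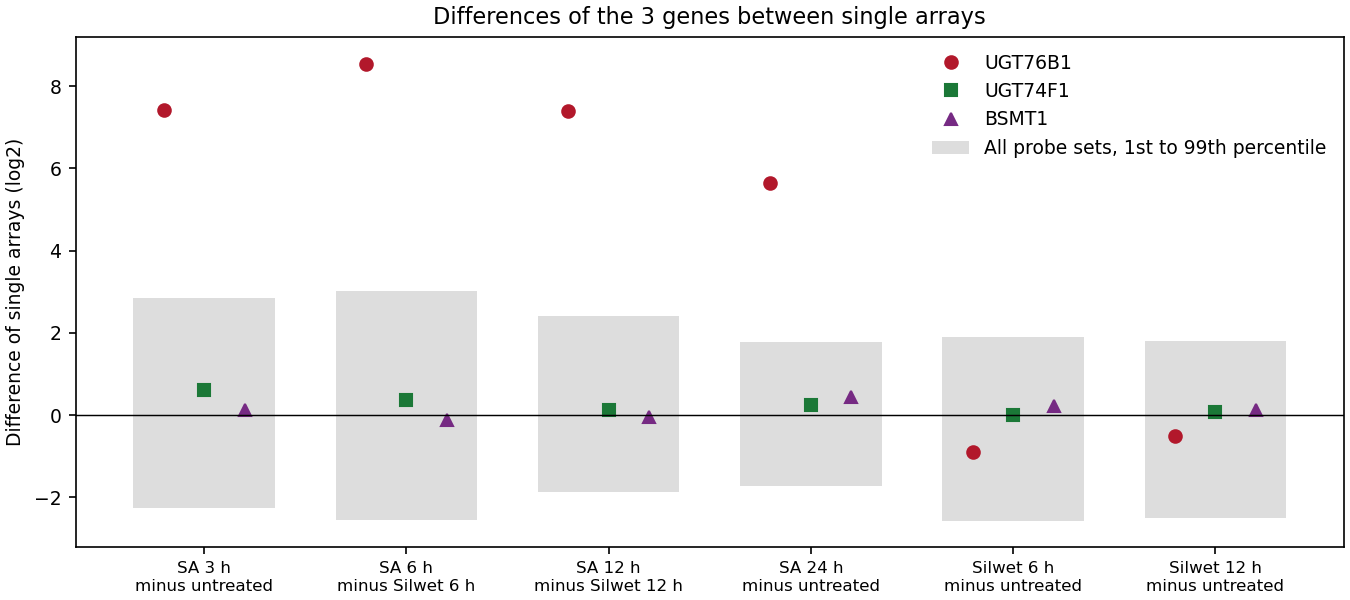
Difference in log2 RMA value (vertical axis) of UGT76B1 (circles), UGT74F1 (squares) and BSMT1 (triangles) in 6 comparisons of single arrays, with the first to 99th percentile of all 13513 probe sets as grey bars. UGT76B1 lies between 5.64 and 8.55 in the 4 SA comparisons, above every grey bar, and below 0 in both Silwet comparisons, while the other genes stay inside the bars.

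Other enzymes that handle SA were read where a probe set named them. In the glucosylation list 5 of 7 genes were measured and 1, UGT76B1, was called higher in limma, with 0 called lower, where all probe sets gave 1.03% and 0.303%. At an unadjusted p under 0.05 they were 4 higher and 0 lower, where all probe sets gave 9.27% and 10.9%. The list's median difference was 0.33, that of UGT74F1, beside -0.03 over all probe sets tested. UGT76D1, whose product glucosylates dihydroxybenzoic acids, read 5.56, 5.59, 5.44 and 5.66 with SA at 3, 6, 12 and 24 h, against 5.08 untreated and 5.37 and 5.27 with Silwet at 6 h and 12 h. Every SA array of UGT76D1 lay above every control array, as for 8.67% of all probe sets. Its difference of 0.32 (SE 0.10) had a limma adjusted p of 0.127. AT5G03490 differed by 0.70 (SE 0.29, limma adjusted p = 0.232) and UGT71C3, which glucosylates methyl salicylate, by -0.34 (SE 0.21, limma adjusted p = 0.412). In the UGT71C3 values the Silwet 6 h array stood out at 5.97, against 5.00 to 5.10 in the SA arrays and 5.03 and 5.18 in the other two controls.

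For the steps other than glucosylation, few listed genes had a probe set that named them alone, and the others were not analysed here. BSMT1 was the 1 gene measured of 6 for SA methylation and the reverse step, hydrolysis of methyl salicylate by MES esterases. Of 5 genes for amino acid conjugation, sulfonation and hydroxylation 1 was measured, GH3.5, an acyl amido synthetase acting on auxin and SA. GH3.5 read 8.32, 8.62, 7.59 and 7.57 with SA at 3, 6, 12 and 24 h, against 8.01 untreated and 6.16 and 6.61 with Silwet at 6 h and 12 h, so the arms overlapped through the untreated array. Its difference was 1.10 (SE 0.48, limma adjusted p = 0.257). AIM1, a multifunctional enzyme of beta-oxidation and the 1 gene measured of 10 for SA synthesis and export, differed by 0.06 (SE 0.31, limma adjusted p = 0.943).

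Of 13 genes for SA perception and transcription 2 were measured, and 1 was called higher in limma with 0 lower, beside 1.03% and 0.303% of all probe sets. At an unadjusted p under 0.05 they were 2 and 0, beside 9.27% and 10.9%. The gene called was GRX480, a glutaredoxin that binds TGA factors, with 12.14, 11.60, 10.07 and 9.55 in SA leaves at 3, 6, 12 and 24 h, against 7.03 in untreated leaves and 5.82 and 6.63 in Silwet leaves at 6 h and 12 h. GRX480 rose by 4.35 (SE 0.66, limma adjusted p = 0.0351). Its 3 h and 6 h SA arrays were highest, as for UGT76B1, and its SA values descended with time from the first array on. UGT76B1 stood highest at 6 h, but by only 0.25 over 3 h, less than its control SD of 0.44. SAG101, the lipase-like partner of EDS1, had 9.42, 9.05, 9.22 and 8.50 with SA at 3, 6, 12 and 24 h, against 7.82 untreated and 7.37 and 7.76 with Silwet at 6 h and 12 h (difference 1.40, SE 0.26, limma adjusted p = 0.0565). N-hydroxypipecolic acid is a further substrate of UGT76B1, and of 3 genes listed for its synthesis AT5G52810 was the 1 measured. AT5G52810 had 11.81, 11.86, 10.49 and 10.08 in SA leaves at 3, 6, 12 and 24 h, against 8.30 in untreated leaves and 7.57 and 7.20 in Silwet leaves at 6 h and 12 h. It rose by 3.37 (SE 0.52, limma adjusted p = 0.0352), with its 3 h and 6 h arrays highest, as for UGT76B1. The calls of GRX480 and AT5G52810 were weaker than that of UGT76B1: each held without SA 24 h and was lost without the untreated array, either Silwet array, or the SA array at 3, 6 or 12 h. Over all 7 fits that left out an array, the limma adjusted p reached 0.122 for GRX480 and 0.135 for AT5G52810, and the differences lay between 3.91 and 4.78 and between 3.10 and 3.69. With clock time as a block the limma adjusted p-values were 0.0646 and 0.0639.

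**Figure D3:**
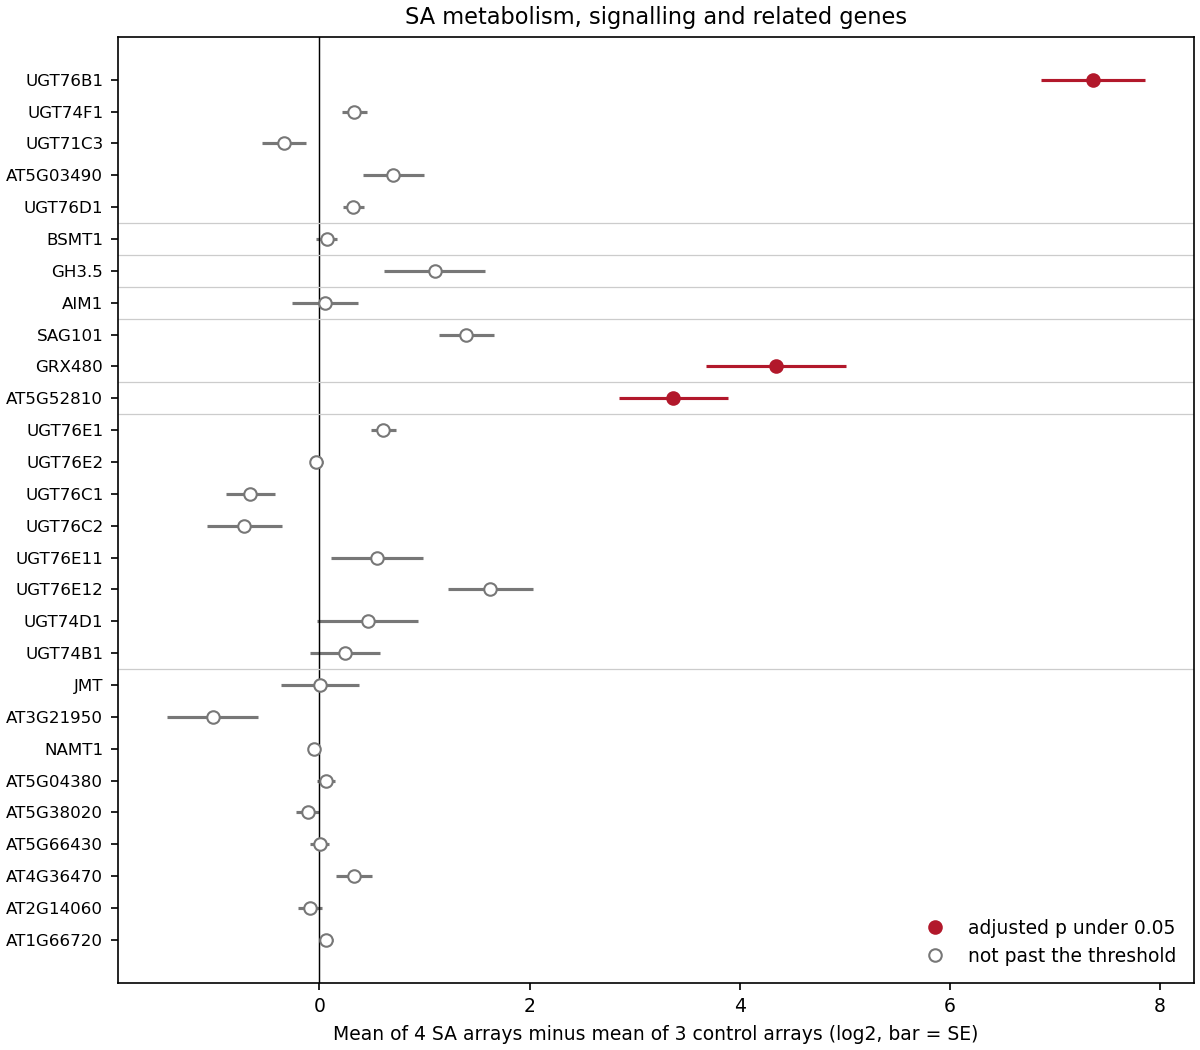
Mean of the 4 SA arrays minus mean of the 3 control arrays (horizontal axis, log2, bars are SE from limma) for the measured genes of the lists, with lists parted by grey lines. Filled points passed an adjusted p of 0.05: UGT76B1 at 7.36, GRX480 at 4.35 and AT5G52810 at 3.37, while UGT74F1 and BSMT1 lie at 0.33 and 0.07.

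Relatives by sequence family were set beside the members. Of 11 measured genes named UGT76 or UGT74, members included, UGT76B1 was the 1 called higher in limma. None was called lower, where all probe sets gave 1.03% higher and 0.303% lower. Their median difference was 0.33, beside -0.03 over all probe sets tested. At an unadjusted p under 0.05 they were 5 higher and 1 lower, beside 9.27% and 10.9% of all probe sets. UGT76E12 came next in size, with 5.59, 7.32, 6.40 and 5.59 in SA leaves at 3, 6, 12 and 24 h, against 4.60 untreated and 4.56 and 4.64 with Silwet at 6 h and 12 h. Its arms did not overlap, and its difference of 1.63 (SE 0.41) had a limma adjusted p of 0.0897. UGT76E1 differed by 0.61 (SE 0.12, limma adjusted p = 0.0616), also without overlap. The cytokinin glucosyltransferase genes UGT76C1 and UGT76C2 had negative differences, -0.66 (SE 0.23) and -0.71 (SE 0.35). Their limma adjusted p-values were 0.179 and 0.305, and for UGT76C1 every SA array lay below every control array. Arms did not overlap for 5 of the 11 genes with SA above and 1 with SA below, beside 8.67% and 9.41% of all probe sets. UGT74B1, of glucosinolate synthesis, and UGT74D1, which acts on auxins, differed by 0.24 (SE 0.33) and 0.46 (SE 0.48).

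Among the SABATH methyltransferases listed as relatives of BSMT1, 9 of 16 were measured. Of these 0 were called in either direction in limma, where 1.33% of all probe sets were. Their median difference was 0.00, beside -0.03 over all probe sets tested. None of the 9 had an unadjusted p under 0.05, where 9.27% of all probe sets were higher and 10.9% lower. For none did every SA array lie on one side of the control arrays, as happened for 8.67% (above) and 9.41% (below) of all probe sets. JMT, which makes methyl jasmonate, differed by 0.00 (SE 0.37), and NAMT1, which methylates nicotinate, by -0.05 (SE 0.04). AT3G21950 had the largest difference of the list, with 7.16, 6.54, 5.67 and 6.36 in SA leaves at 3, 6, 12 and 24 h, against 6.89 untreated and 8.31 and 7.16 with Silwet at 6 h and 12 h. That difference was -1.02 (SE 0.44, limma adjusted p = 0.249).

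The genes whose levels followed UGT76B1 most closely were sought among 5193 probe sets with a range of at least 1 log2 unit. By Pearson's r over the 7 arrays they were AT3G47480 (0.996), AT2G41380 (0.996), AT5G44820 (0.993), AT1G15790 (0.992), AT1G51890 (0.992) and AT4G19370 (0.992). The 7 arrays fall into SA and control arrays, and r rests mostly on that division. AT3G47480 had the highest rank correlation of these 6, with a Spearman rho of 0.964. It read 10.29, 10.63, 10.57 and 9.88 with SA at 3, 6, 12 and 24 h, against 6.80 untreated and 6.14 and 6.52 with Silwet at 6 h and 12 h. AT2G41380 was the 1 of the 6 that shared both the top at 6 h and a drop of over 1 log2 unit by 24 h, with 7.84, 8.07, 7.38 and 7.02 in SA leaves at 3, 6, 12 and 24 h, against 4.31 untreated and 4.35 and 4.41 with Silwet at 6 h and 12 h. SA minus control differences of the 6 ran from 2.21 (AT5G44820, read by 1 of its 2 probe sets) to 4.51 (AT1G51890), beside 7.36 for UGT76B1. They are given as a description, since the genes were chosen for following UGT76B1 over these arrays. UGT74F1 and BSMT1 varied by less than 1 log2 unit over the arrays, and no gene was matched to them.

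**Figure D4:**
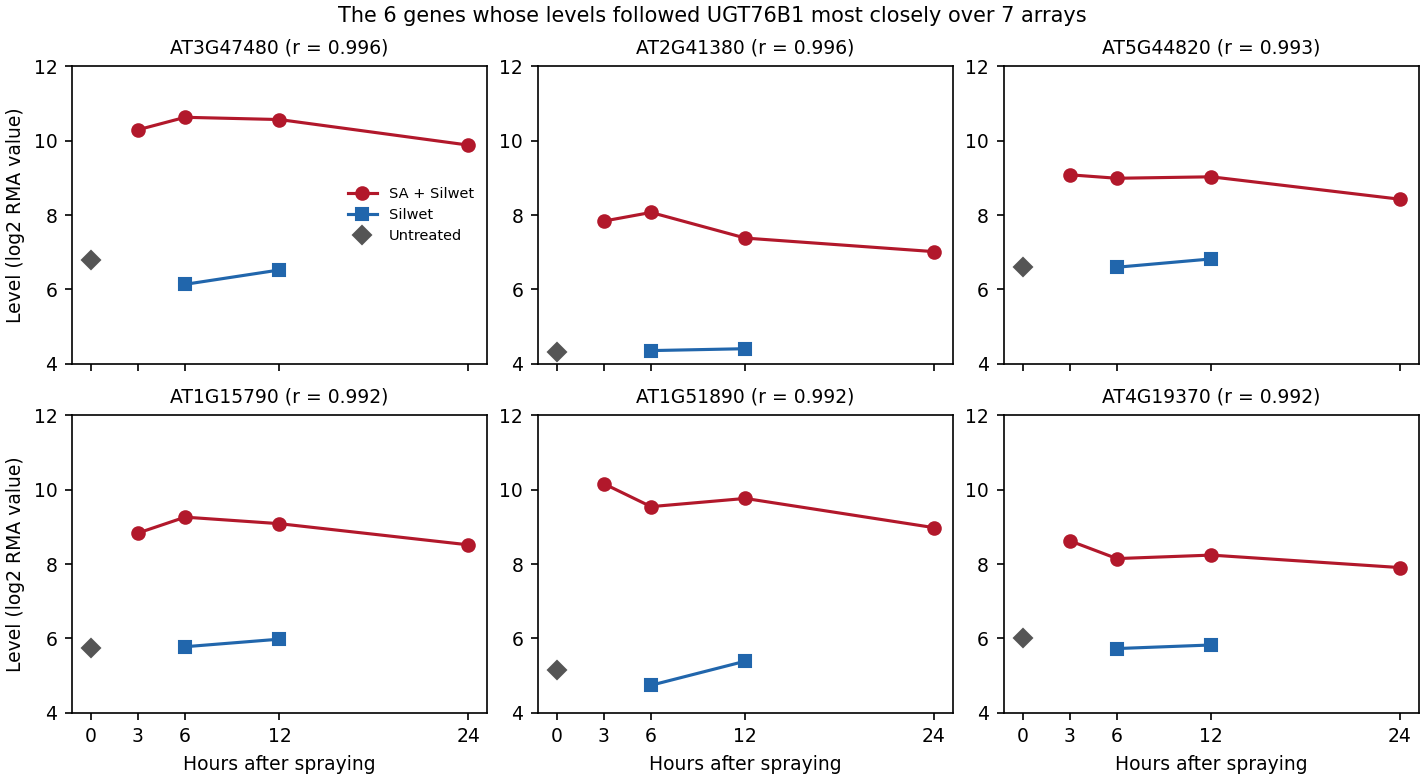
Levels (vertical axis, log2 RMA value) of the 6 genes with the highest Pearson's r to UGT76B1 against hours after spraying, 1 point per array, for SA with Silwet (circles), Silwet alone (squares) and untreated leaves (diamond). In each panel all 4 SA arrays lie above all 3 control arrays, and the 24 h array is the lowest of the SA arrays.

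Genes beside the members on the chromosome were read as well, a choice made after the values were known. For each member these were the 3 nearest loci with a named probe set on either side. None of the 18 passed the test in limma, where 1.33% of all probe sets did in either direction, and 5 had an unadjusted p under 0.05 (3 higher and 2 lower with SA, beside 9.27% and 10.9% of all probe sets). Beside UGT76B1, AT3G11320 had 8.62, 8.41, 8.05 and 7.65 in SA leaves at 3, 6, 12 and 24 h, against 7.35 untreated and 7.45 and 7.55 with Silwet at 6 h and 12 h, a difference of 0.73 (SE 0.25, limma adjusted p = 0.172). The locus on the other side, AT3G11350, differed by 0.12 (SE 0.11, limma adjusted p = 0.623). Next to BSMT1, AT3G11490 and AT3G11470 differed by -1.23 (SE 0.43) and -0.74 (SE 0.21), with limma adjusted p-values of 0.178 and 0.113, while BSMT1 itself differed by 0.07.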

How the data were processed

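The authors deposited log2 expression values of 7 one-colour ATH1 arrays, which the submitters' processing notes credit to RMA and affy. Their versions are not given in the sources used here. RMA quantile-normalises the arrays together, so a change in most transcripts would be hidden. Arrays have no read depth, and their number limits the precision. Of 22810 probe sets, 64 were the maker's controls. The platform annotation named 1 gene for 13513, several for 503 and none for 8794. RefSeq TAIR10.1 supplied current symbols for 13436 of them by gene number.

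Groups came from the treatment labels. The 4 SA arrays were set against the 3 control arrays with limma 3.58.1 (R 4.3.3; lmFit, eBayes with a trended prior, two-sided, Benjamini-Hochberg over all 13513 probe sets, threshold 0.05). Its error is the spread over times, not over plants. Single arrays were compared without a test. Named genes were the members, the measured genes of 8 lists and the 6 genes closest to a member that varied by at least 1 log2 unit. Members and lists were chosen with earlier results of these data known. Alternatives left out arrays, added clock time as a block, and changed the features tested, the variance prior and the normalization. RefSeq's table served only for names and the order of loci.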

Additional observations from a re-analysis of the deposited data

Results flagged for a closer look

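The BSMT1 level at 24 h after SA, 4.51, stood apart from the other 3 SA arrays, which lay between 4.13 and 4.19. Its gap to the nearest of them was 0.838 of the arm's range, above Dixon's 95% critical value for 4 values. Chance alone flags about 5% of such groups, and these 4 arrays differ in time. In the dimmest 25% of probe sets, to which BSMT1 belongs, the median deviation from a probe set's own mean was 0.01 on that array. It was also 0.01 on Silwet 6 h and on the untreated array, where BSMT1 read lowest, and 0.005 on SA 3 h. The SA 24 h array was the highest of the 7 for 19.2% of these probe sets. The other arrays were highest for between 6.72% (SA 6 h) and 19.1% (Silwet 6 h). Among the SABATH relatives with a mean below that of BSMT1, AT5G66430 had 4.21 at 24 h against 3.82 to 3.94 on the other SA arrays, and AT5G04380 had 4.36 against 4.08 to 4.11. NAMT1, also in that range, had 3.75 at 24 h against 3.63 to 3.77.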

How the results depend on the processing

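UGT76B1 kept its direction and its call in all 14 alternatives, with differences of 7.11 to 7.78 when an array was left out and 7.19 to 7.97 otherwise (limma adjusted p up to 0.0375, with clock time as a block). UGT74F1 stayed positive and uncalled in its 13 alternatives, at 0.25 to 0.38 without an array and 0.25 to 0.35 otherwise. BSMT1 stayed uncalled, at -0.0159 (without SA 24 h) to 0.126 when an array was left out, and turned to -0.0869 with only the 6 h and 12 h arrays. Leaving out probe sets below the median removed UGT74F1 and BSMT1. The count of 180 called probe sets was 17 to 681 without an array, 26 with the 6 h and 12 h arrays alone, 395 of 22746 with all probe sets and 348 of 6757 without those below the median, where the sets tested differ. Of 42 alternative values for single-array differences, 38 moved by less than the control SD. The others used the mean Silwet level in place of the untreated array at 3 h and 24 h, giving 8.11 and 6.34 for UGT76B1 and -0.05 and 0.26 for BSMT1. The labels give no replicate numbers to pair by; the block on clock time, which sets SA against Silwet at 6 h and 12 h and SA 24 h against untreated, left 168 probe sets called.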
